A study of Mus musculus with 6 samples.

Results

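AK031010, AK020438, AK035599 and TC1637884 are 4 mouse transcripts that the array lists by a cDNA or assembly identifier and not by a RefSeq name. They were chosen by the measured size of their change after transforming growth factor β1 (TGF-β1), so that change is described here and not tested. Each identifier was matched to the systematic name in the array files and found 1 probe, present as 1 spot per array (A_52_P244908 for AK031010, A_51_P186203 for AK020438, A_52_P739149 for AK035599 and A_52_P68440 for TC1637884). They are 4 of 33269 genes and transcripts on the array. For 16735 of these the systematic name matched no RefSeq accession with a single symbol in the reference used here. They are called transcripts without a symbol, which does not mean that no gene symbol exists for them. The RNA was that of the Lhx2 line, blood progenitor-like mouse cells that keep dividing because expression of Lhx2, a LIM-homeobox gene, is forced in them, in medium with stem cell factor and interleukin 6. All cells were kept without serum overnight. One group of 3 arrays then stayed untreated and another group of 3 received TGF-β1 at 10 ng/ml, and RNA was taken after 2 h in both. The 3 replicate numbers stand for separate RNA harvests, so an untreated and a treated array with the same number are called a pair.

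TGF-β1 binds a pair of serine/threonine kinase receptors, which phosphorylate SMAD proteins. These enter the nucleus with SMAD4 and change transcription within hours, and among the first transcripts to rise are those of the pathway's own inhibitors. Identifiers that start with AK are database accessions given to full-length cDNA clones, many of them from the RIKEN mouse collection. Identifiers that start with TC are tentative consensus sequences, built by assembling overlapping expressed sequence tags. Such a transcript can be part of a known gene, an alternative end of one, or a non-coding RNA. Which of these applies to the 4 transcripts, where they lie in the genome and what their sequence is were not analysed here, since the columns of the array files used here give the probe and the systematic name, and the reference table did not hold the identifiers.

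Of the 4 transcripts, 3 were higher and 1 was lower after TGF-β1. The values below are log2 of the background-subtracted signal minus the array's 75th percentile, given as mean ± SD with n = 3 arrays per group. Standard errors (SE) and confidence intervals come from the fit without a term for harvest, so differences between harvests widen them. They take no account of the choice of the 4 by size of change. A spot counts as detected where the scanner software calls it well above background. AK031010 went from a dim but detected spot to a strong one, 19.3-fold higher after background subtraction. AK020438 went from the edge of detection to a clear signal. It was 16.7-fold higher with untreated replicate 3 raised to the dimmest detected probe of its array. TC1637884 was bright in both groups and 6.34-fold higher. AK035599 was detected on the 3 untreated arrays and on 0 of the 3 treated arrays.

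AK031010 had processed signals of 34.4, 43.8 and 22.3 on untreated arrays 1, 2 and 3, and of 748, 693 and 592 on treated arrays 1, 2 and 3. It was detected on all 6 arrays, and every treated array was above every untreated one, as held for 5.37% of all genes and transcripts measured. Its level was -4.80 ± 0.33 untreated and -0.53 ± 0.28 treated, a difference of 4.27 (moderated SE 0.23, 95% confidence interval 3.73 to 4.81). The pair differences were 4.47, 3.98 and 4.36 on the log2 scale, so the change was of like size in each harvest. Before background subtraction the spot signals differed less, 10.7-fold, 9.01-fold and 11.4-fold, and the authors' deposited log2 values by 3.47, 3.23 and 3.09. The signal divided by the scanner's own error was 10.0 on each treated array and 7.08 to 9.26 on the untreated arrays.

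TC1637884 was far above background in both groups, with processed signals of 1472, 1658 and 949 untreated and 8713, 10244 and 8434 treated. Every treated array was above every untreated one, and all 6 spots were detected with none saturated. Its level was 0.56 ± 0.27 untreated and 3.23 ± 0.17 treated, a difference of 2.66 (SE 0.18, 95% confidence interval 2.22 to 3.10). The pair differences of 2.60, 2.62 and 2.77 had an SD of 0.097, the smallest among the 4 transcripts.

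AK020438 had processed signals of 11.4, 12.1 and 2.30 untreated and 285, 238 and 104 treated. All 3 treated spots were detected, but on the untreated side only replicate 1 was, so the untreated mean rests on values at the edge of background. AK020438 thus passed the filter on dim probes (detected on at least 3 arrays) only through the group where it was high. Replicate 3 of the untreated group had a signal no larger than its error (signal over error 0.998). The level was -7.04 ± 1.21 untreated and -2.34 ± 0.87 treated, a measured difference of 4.70 (SE 0.68, 95% confidence interval 3.07 to 6.32) that rests on those untreated values. With untreated values below the dimmest detected probe of their array (replicate 3) raised to that limit, the difference was 4.06, or 16.7-fold. Untreated replicate 2 (12.1) lay above that limit without being called detected, so 16.7 is no strict lower bound. The pair differences were 4.67, 4.30 and 5.12. The 5.12 of pair 3 rests on the untreated spot that was no larger than its error, and on other measures pair 3 had the smallest change: the spot signals before background subtraction differed 6.69-fold, 5.97-fold and 3.50-fold, and the authors' deposited log2 values by 2.76, 2.61 and 1.49. With untreated replicate 3 left out the difference was 4.00.

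AK035599 was the only one of the 4 that was lower after treatment. Its processed signals were 48.9, 69.5 and 27.0 untreated and 1.96, 3.65 and 1.90 treated. Every treated array was below every untreated one, as held for 5.06% of all measured. The treated spots were not well above background on any array. They lay below the dimmest detected probe of the same array (6.56 to 8.05 in signal), so they give no firm size. The untreated level of -4.31 ± 0.52 set against that limit, a mean of -7.10, makes AK035599 6.90-fold lower after TGF-β1. The limit is that of the dimmest detected probe and not of this spot, so 6.90 is no strict lower bound. The measured treated mean was -8.67, a difference of -4.36 in the fit, and the pair differences were -4.61, -4.26 and -4.21, all of which rest on treated values below detection. AK035599 passed the filter on dim probes (detected on at least 3 arrays) through its untreated arrays alone, so it could pass only by differing between the groups. Before background subtraction the median pixel signals were 69, 72 and 55 untreated and 34.5, 33 and 31 treated, over local background of 27, 21 and 19 untreated and 26, 24 and 26 treated. The treated spots thus lay 8.5, 9 and 5 units above their surroundings and the untreated spots 42, 51 and 36.

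**Figure D1:**
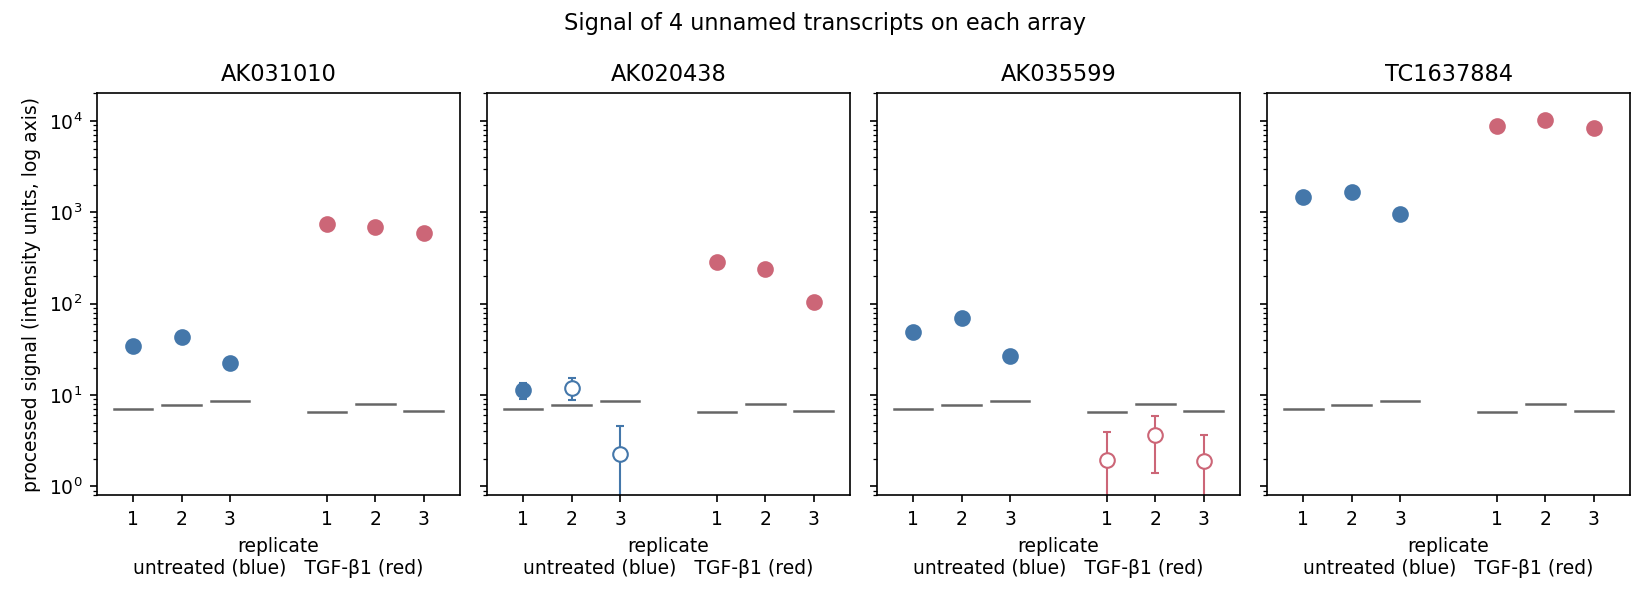
Processed signal of the 4 transcripts (intensity units, log axis) on each untreated (blue) and TGF-β1-treated (red) array, by replicate number; bars are the scanner's error and run off the axis where they reach 0. Filled points were well above background, open points were not, and the grey lines mark the dimmest detected probe of each array; TC1637884 lies far above the lines on every array, and the treated points of AK035599 lie below them.

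The choice of the 4 followed the size of change among 13541 measured transcripts without a symbol. By measured size AK020438, AK035599 and AK031010 ranked 1, 2 and 3 there and TC1637884 ranked 7, but the first 2 of these sizes rest on spots that were not well above background. With every value raised to the detection limit of its array, AK031010 ranked 1 (4.27), AK020438 2 (4.06), AK035599 4 (-2.79) and TC1637884 5 (2.66), and among all 29192 genes and transcripts measured they ranked 1, 4, 17 and 21. In limma without a block, 25 transcripts without a symbol changed at an adjusted p under 0.05 (0.185% of those measured). Of these 24 were higher (0.177%) and 1 was lower (0.00738%), and the fall was AK035599. The 4 transcripts included 3 of these 25, and AK020438, with its wide spread, was outside. With the replicate number as a block 64 transcripts without a symbol changed (0.473%), or 194 of all genes and transcripts (0.665%), and 4 of the 4 were among them. With normexp background correction 0 transcripts without a symbol passed in limma, so none of the 4 did (173 had an unadjusted p under 0.05). Since the rule used this contrast, these counts say nothing further about the 4. Leaving out 1 array cut the 25 to between 1 (without untreated replicate 1) and 6 (without untreated replicate 2), with 5, 3, 3 and 2 without untreated replicate 3 and treated replicates 1, 2 and 3.

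The order of the sizes was not strict. BC046309, which is not among the 4, had a log2 change of 2.84 (SE 0.27, 7.15-fold) and stood just above TC1637884. Of the transcripts past the threshold, AK005822 came next below TC1637884 with 2.54 (SE 0.20). AK047640 and AK035648 followed with 2.49 and 2.20, but neither was detected on an untreated array. Against the dimmest detected probe of each array they were 1.45-fold and 2.73-fold higher. AK028157 and AK086373 had larger values than TC1637884 (2.91 and 2.67) and did not pass the threshold. With values raised to that limit AK035599 (-2.79) was about the size of BC046309.

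**Figure D2:**
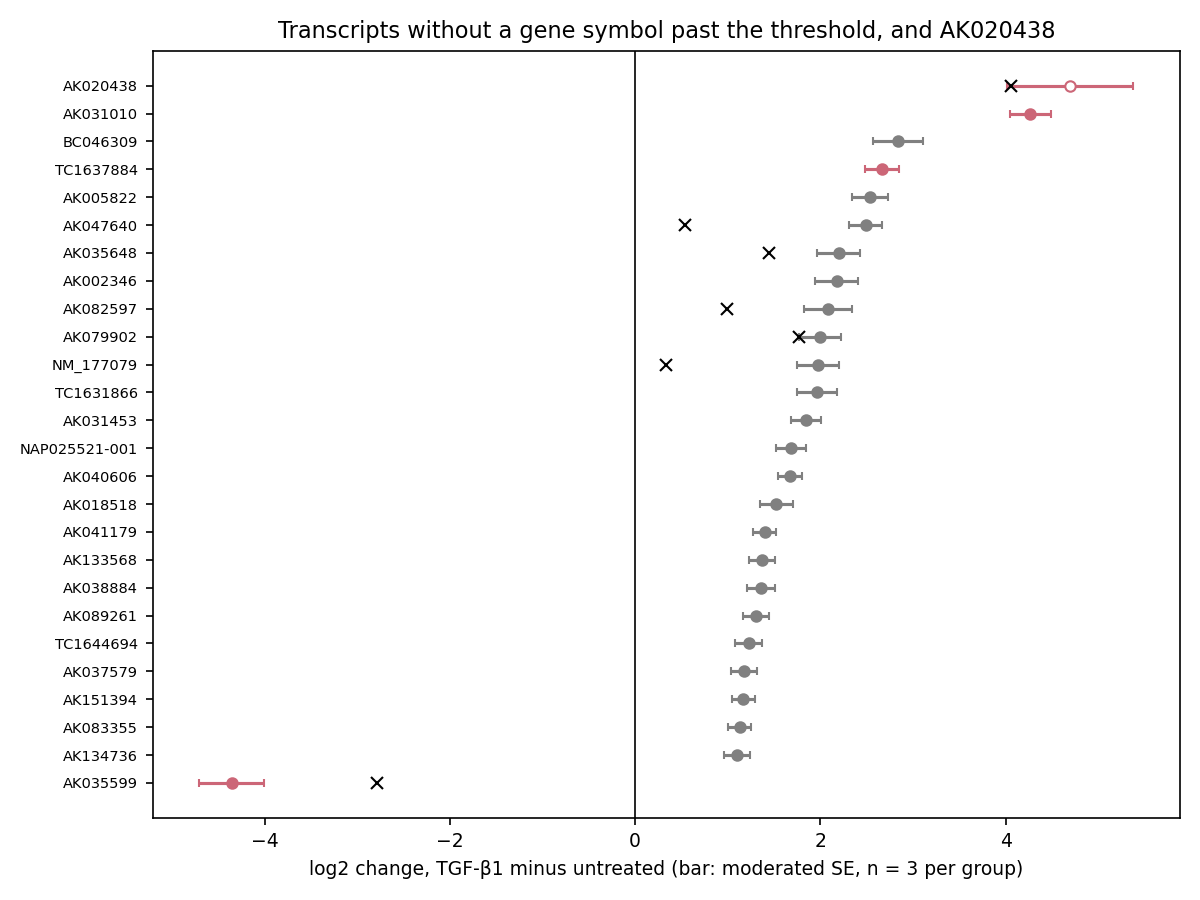
Log2 change with TGF-β1 (bars: moderated SE, n = 3 arrays per group) of the 25 transcripts without a symbol past the threshold, and of AK020438 (open point), which did not pass without the replicate block. The chosen transcripts are red, and a cross marks the change with values raised to the detection limit where that differs; 24 of the 25 lie above 0, and AK035599 is the 1 below, at -4.36 as measured and -2.79 at the limit.

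The calls were spread over the kinds of identifier. Of 7648 measured AK transcripts 19 changed (0.248%), 18 higher and 1 lower. Of 527 measured TC assemblies 3 rose (0.569%), and of 5366 transcripts with other identifiers 3 rose (0.0559%). Genes with a symbol gave 49 of 15651 (0.313%), and all features together 74 of 29192 (0.253%). Whether these shares differ was not tested.

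A list of 22 feedback inhibitors and early targets of TGF-β gives a scale for these sizes. It had 8 members higher and 0 lower in limma (0 lower at an unadjusted p under 0.05 too), and a median log2 change of 1.38, where the median over all measured genes and transcripts was -0.01. Higher calls made up 0.226% of all measured and lower calls 0.0274%. Within the list Ldlrad4, which restrains SMAD activation, had the largest change (4.07, SE 0.27), followed by the repressor Hey1 (3.70, SE 0.43), the inhibitory SMAD gene Smad7 (3.56, SE 0.15) and the SMAD co-repressor Skil (3.46, SE 0.13). The change of AK031010 (4.27) lay near that of Ldlrad4. AK020438 had 4.06 with untreated replicate 3 raised to the limit. The change of TC1637884 (2.66) lay near that of the inhibitory SMAD gene Smad6 (2.76, SE 0.16). Differences between the chosen transcripts and these genes were not tested.

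For each of the 4, the genes with the nearest profile were found as those with a symbol whose centred log2 values over the 6 arrays had the smallest root mean square difference, so a small value means that both the size and the harvest pattern were alike. The measure is dominated by the treatment change that chose the 4 and is given as a description. AK031010 was nearest to Kcne3, a potassium channel subunit (0.123 log2 units), then to Ldlrad4 (0.143) and Smad7 (0.423). The nearest gene to AK020438 was Rilpl1, a RILP-like protein gene, at 0.534, with Ldlrad4 at 0.689 and Kcne3 at 0.772. TC1637884 was nearest to Lax1, a lymphocyte adaptor (0.123), then to Smad6 (0.168) and to the AP-1 gene Jund (0.234). AK035599 was nearest to the MYC-family gene Mycn (0.634), which went from a mean level of -1.83 to -5.73, then to the small GTPase gene Gem (0.678; -0.69 to -4.53) and to the polysialyltransferase gene St8sia4 (1.40; 3.64 to 1.90). Both Mycn and Gem were detected on all 6 arrays, where AK035599 was not. The distances of AK035599 rest on treated values below detection. With values raised to the detection limit its change was -2.79, against -3.90 for Mycn and -3.84 for Gem. Among the 4 themselves AK031010 and AK020438 were the closest pair at 0.666. The distances of AK020438 rest in part on its untreated spot that was no larger than its error.

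**Figure D3:**
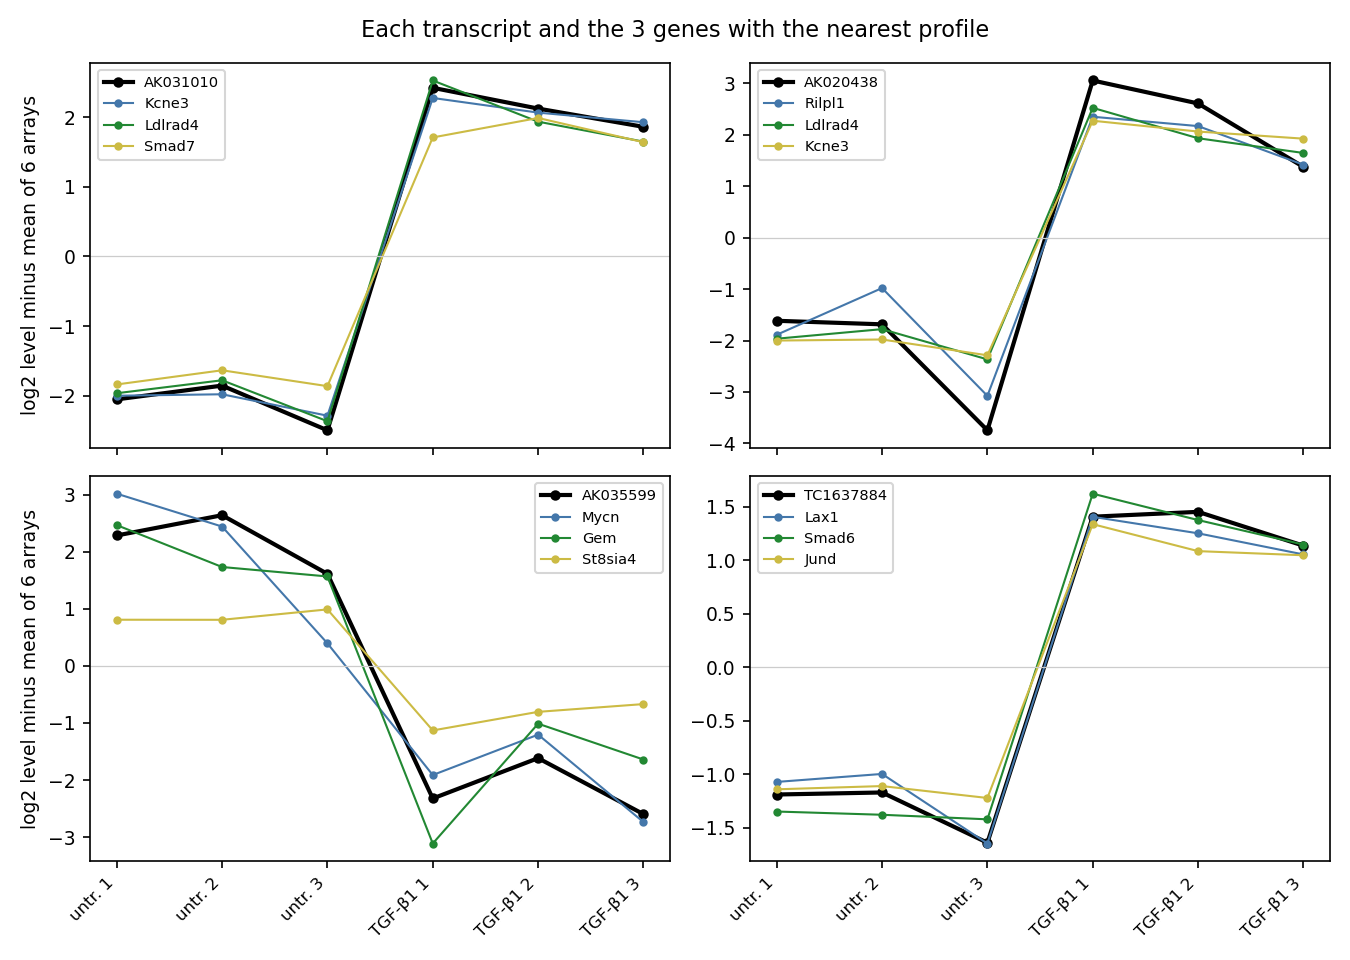
Log2 level minus the mean over the 6 arrays for each transcript (black) and the 3 genes with a symbol nearest to it in profile; lines join arrays only to guide the eye. Kcne3 and Ldlrad4 overlie AK031010, Lax1 lies close to TC1637884, and AK020438 has a deeper low than its 3 neighbours on untreated array 3, where its spot was not well above background.

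The 4 transcripts were each lowest in harvest 3, in the untreated group and in the treated group alike. The treated values of AK035599 all lie below detection and so have no order, and the untreated low of AK020438 is itself a spot that was not well above background. A low in harvest 3 in both groups held for 12% of all measured genes and transcripts and for 12.4% of those without a symbol. The difference between harvests was no part of the choice. Choosing among transcripts called without a block favours a small spread among harvests, but AK020438 was not called in that fit. In a limma fit with treatment and harvest, a moderated F test over all genes and transcripts called 904 (3.1%) at an adjusted p under 0.05. Leaving out 1 array moved this count to 458 without untreated replicate 2, 8304 without untreated replicate 3, 505 without treated replicate 2 and 6625 without treated replicate 3. Both arrays of harvest 1 lay on slide 1 and both of harvest 2 on slide 2, while harvest 3 was split. Differences between harvests 1 and 2 therefore cannot be told apart from differences between slides.

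AK020438 was the 1 of the 4 past that threshold (limma moderated F, adjusted p = 0.0373). Its mean level was -3.97, -4.23 and -5.87 in harvests 1, 2 and 3, a range of 1.91 on the log2 scale (3.75-fold), where the median range over all measured was 0.37. The treated arrays alone, all detected, spanned 3.21-fold. The call was lost with signals raised to the detection limit of their array (adjusted p = 0.269), with the authors' matrix values (0.284), with normexp background correction (0.421) and without the filter on dim probes (0.0704), and over 12 alternatives the adjusted p ran from 0.00246 to 0.421. AK035599 had a range of 2.01-fold (adjusted p = 0.0926, from 0.0277 to 0.404 over 12 alternatives). AK031010 had 1.42-fold (0.249) and TC1637884 1.31-fold (0.242, with 0.0463 under normexp). Under normexp, which also gave the 0.0277 of AK035599, 53.1% of all genes and transcripts measured passed this F test. Markers of fibroblasts moved with the harvest too: 4 of 4 (Col1a1, Col1a2, Col3a1 and Pdgfra) were lowest in harvest 3, and their summed level was 0.791 and 0.972 times the 75th percentile there against 6.01 to 23.4 on the other arrays. They were highest in harvest 2, and each was detected on 5 or 6 of the arrays. Their part in the harvest difference of AK020438 was not tested.

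The size of the change differed between ways of processing for the other 3 transcripts more than for TC1637884, which had 2.57 in the authors' deposited log2 values and 2.52 with normexp. AK031010 had 3.26 and 2.27. AK020438 had 2.29 and 1.22. AK035599 had -1.04 and -0.81. The normexp setting used median spot and local background signals and added an offset of 50. Such an offset by construction shrinks the log2 changes of dim spots. Normexp shifted the median over all genes and transcripts to -0.16, and relative to that shift the 4 had 2.69 (TC1637884), 2.43 (AK031010), 1.38 (AK020438) and -0.65 (AK035599). Directions were the same in every setting that was run, within each slide as well. The arrays lay on 2 slides, with untreated arrays 1 and 3 and treated array 1 on slide 1. Within slide 1 and slide 2 the changes were 4.70 and 3.85 for AK031010, 5.74 and 3.68 for AK020438, -4.27 and -4.75 for AK035599 and 2.82 and 2.46 for TC1637884.

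**Figure D4:**
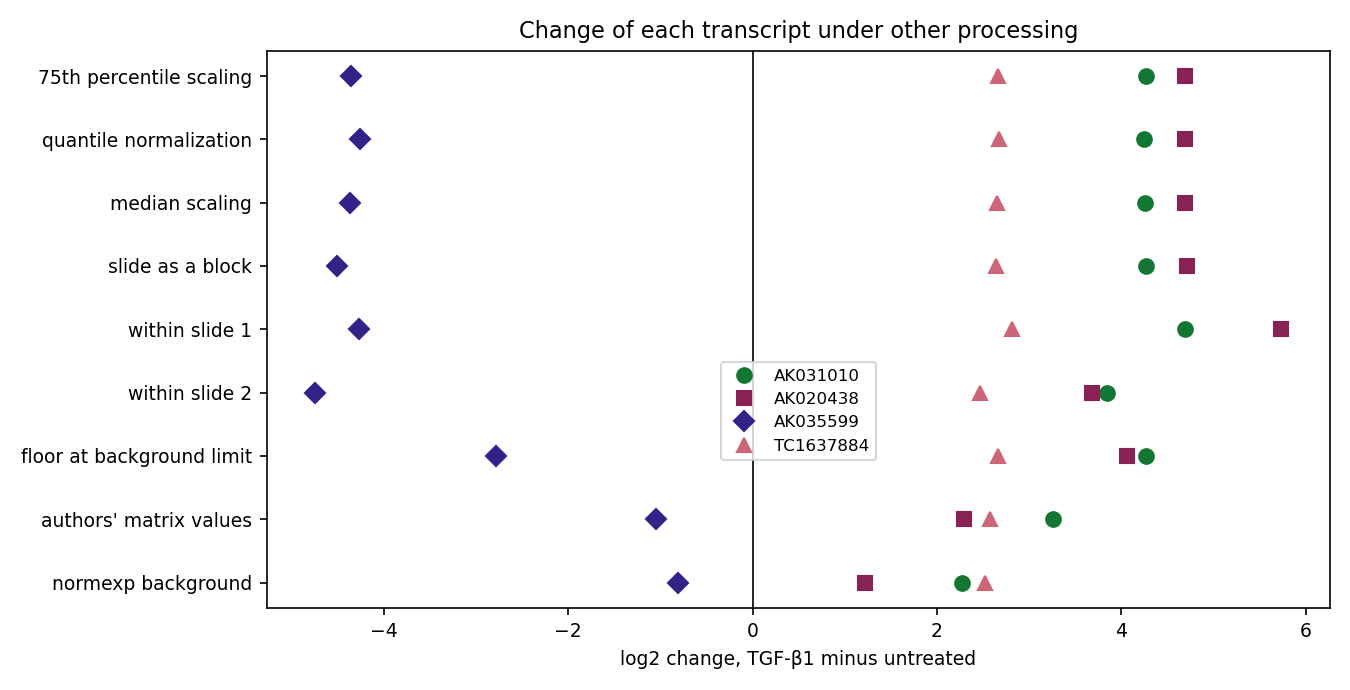
Log2 change with TGF-β1 of each transcript under 7 ways of processing the 6 arrays, and within each slide. TC1637884 lies between 2.52 and 2.68 where all 6 arrays are used and at 2.82 and 2.46 within slides 1 and 2, while AK035599 moves from -4.36 with the deposited processed signals to -0.81 with normexp, and no point crosses 0.

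The place of the spots on the slide was looked at for each of the 4, since AK020438 and AK035599 share row 522 of 532. The other spots within 5 rows and columns (105 to 115 per transcript) had a median log2 change between -0.07 and 0.11. Since the 4 were chosen for the size of their change, their distance from these ordinary spots is no test of an effect of place. In that shared row AK020438 (column 56) was higher and AK035599 (column 75) lower after treatment, and an effect of place was not tested.

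**Figure D5:**
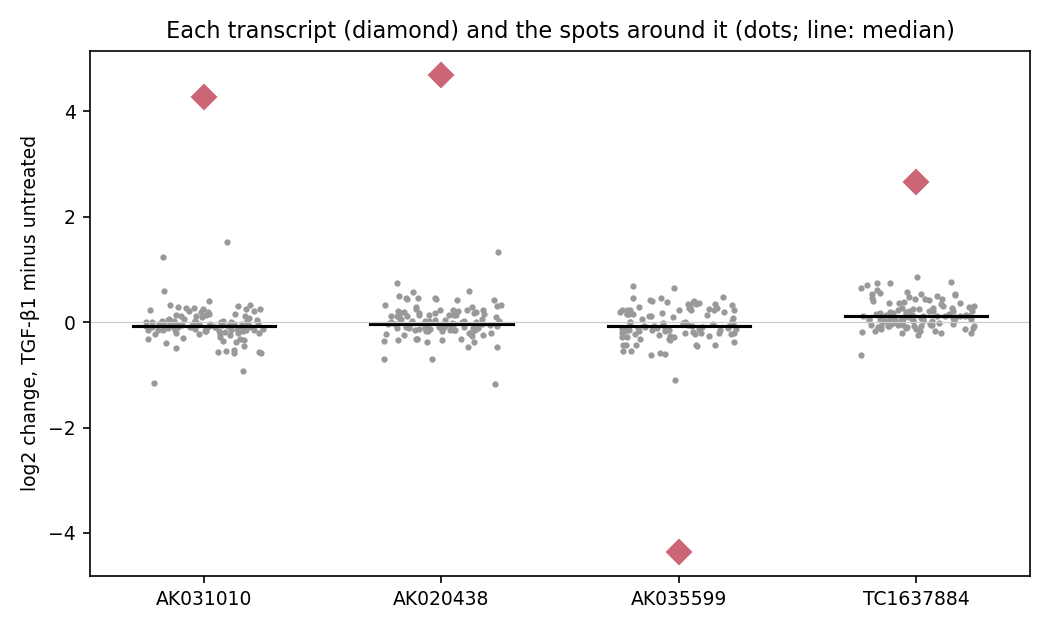
Log2 change with TGF-β1 of each transcript (red diamond) and of the spots within 5 rows and columns of it (grey dots, black line at their median). The medians of the surroundings lie between -0.07 and 0.11; where the diamonds lie follows from how the 4 were chosen.

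Across the series, 82.8% to 90.3% of probes were well above background on an array, and 3 arrays per group set the precision of each value. Of 9 blood progenitor markers 9 were detected on all 6 arrays, as held for 26978 of 33269 genes and transcripts on the array. The markers included Cd34 (untreated level 5.68), Ptprc (3.98) and Kit (2.82), with Lhx2 itself dim (-4.29). Of 15 measured markers of other cell types 13 were detected on all 6 arrays and 0 passed the threshold for treatment in limma, with 0 at an unadjusted p under 0.05 either.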

How the data were processed

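Per the file headers, Agilent's Feature Extraction software (version 10.1.1.1) read the 6 one-colour arrays (design 014868, build mm8), and the authors' processed intensity had background subtracted and a spatial trend removed on each array. The detection flags and error are the software's. The authors' deposited series matrix holds log2 values, made with limma per the submitters' processing notes; how else it was made is not stated there. Here, log2 of the processed intensity minus the array's 75th percentile was used, leaving out the 43 to 101 outlier spots of each array. Symbols came from RefSeq accessions of assembly GRCm38.p6 for 23374 of 41174 probes. Probes detected on at least 3 arrays (36384) gave 29192 genes and transcripts, each by its brightest probe, tested with limma 3.58.1 in R 4.3.3 (lmFit, eBayes, Benjamini-Hochberg adjustment, threshold 0.05). Same-numbered arrays deviated together (r = 0.636, 0.786 and 0.557, and at most 0.0712 otherwise), so the numbers were taken to pair the samples. The arrays of pairs 1 and 2 each shared a slide, so harvest and slide cannot be told apart there. Those of pair 3 (0.557) lay on different slides. The scripts were tested on simulated data. Named were the 4 transcripts, the next 4 past the threshold by size, the 3 nearest genes in profile and the largest of a pathway list; AK028157, AK086373 and the marker genes printed were picked after their values were seen. The transcripts and lists were chosen with earlier results of these data known. Alternatives were other background handling, scaling, filters, blocks and left-out arrays.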

Additional observations from a re-analysis of the deposited data

How the results depend on the processing

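The directions of the 4 transcripts were the same under all alternatives run. Without a replicate block 74 genes and transcripts changed, 25 without a symbol; with the replicate block there were 194 and 64, with the authors' matrix values 171 and 50, and with normexp background 5 and 0 (173 without a symbol at an unadjusted limma p under 0.05). Median scaling gave 47 in all, and no filter on dim probes gave 16 without a symbol. With single arrays left out the counts ran from 7 to 24 and from 1 to 6. The replicate block left the sizes of the 4 as they were. AK031010 had 3.26 with the matrix values, 2.27 with normexp, 4.70 within slide 1 and 3.85 within slide 2; AK020438 had 2.29 and 1.22 with the matrix values and normexp, and AK035599 -1.04 and -0.81. AK035599 had -2.79 with signals raised to the detection limit of the array, an alternative chosen after seeing the data; this follows from its construction. The offset of 50 added with normexp by construction shrinks the changes of dim spots. How much of the normexp shifts it made, and the cause of the other shifts, were not tested. The count of genes and transcripts that differed between harvests, 904, became 15493 with normexp, 1662 with the matrix values and 1569 with median scaling, and ran from 458 to 8304 with single arrays left out. AK020438 and AK035599 gave no value where detection on all 6 arrays was asked.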
